A study of Homo sapiens with 30 samples.

Results

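The interval studied here is an 80-kb stretch of chromosome 9 in hg19, which by the rule that defined it holds GPSM1, DNLZ, CARD9 and SNAPC4. Its members are the restriction fragment ends whose listed position falls in that stretch, the first at 139217002 and the last at 139294869. There were 210 of them among 382657 chromosome 9 ends in the tables of the NOTCH1 promoter viewpoint, 222 of 429740 at the S2 viewpoint and 224 of 428705 at the S4 viewpoint, and 206 of the 228 ends listed at any viewpoint were listed at all 3. The choice of ends used no read count.

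The series profiled chromatin contacts by 4C-seq around NOTCH1 in 30 libraries of K562, a cell line from human chronic myeloid leukaemia. Each of 3 viewpoints (the NOTCH1 promoter, S2 and S4) had 2 libraries from each of 5 genotypes: cells mutated at S2, at S4, at S5, at both S4 and S5 (S4-S5), and wild-type cells (WT). The series title describes the mutated sites as depleted of CTCF. The labels do not say what kind of mutation was made, where S5 lies, whether a mutant is 1 clone or whether the replicates came from separate cultures. The p-values below therefore measure the spread between 2 libraries, which may be technical.

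In 4C-seq, chromatin is crosslinked, cut and ligated, and the fragments joined to 1 chosen fragment, the viewpoint, are amplified and counted. CTCF is a zinc finger protein that binds DNA and stops cohesin as cohesin extrudes chromatin loops, so pairs of CTCF sites often mark the ends of loops and the borders of contact domains. NOTCH1 encodes a receptor of the Notch pathway with roles in blood cell development and leukaemia.

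The interval lay centromeric of all 3 viewpoints. Its distance was 90.9 to 171 kb from S2, 148 to 228 kb from the promoter and 229 to 309 kb from S4, so S2 lay between the interval and both other viewpoints. In RefSeq's gene order (GRCh38.p14), GPSM1, DNLZ, CARD9 and SNAPC4 follow each other in that order, with CCDC187 as the nearest protein-coding gene before GPSM1, and ENTR1 and PMPCA after SNAPC4. GPSM1 encodes a regulator of G protein alpha subunits of the inhibitory class, DNLZ a partner of the mitochondrial chaperone HSPA9, CARD9 an adaptor of antifungal signalling in myeloid cells, and SNAPC4 the largest subunit of the complex that activates small nuclear RNA genes. No expression was measured, and exons and introns were not assigned to the hg19 positions.

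RefSeq promoter windows (250 bases before to 50 after the start, GRCh38.p14) were found for 2 of the 4 genes, with 3 windows for GPSM1 and 1 for CARD9. They were searched for cut sites, where the assay's fragment ends lie. A window without a site can still lie in a fragment whose ends are read. The windows were not matched to listed ends. GATC, the DpnII site, was in 0 of these 4 windows and in 41.7% of all 35116 windows of the table. For the second enzymes, CATG (NlaIII) was in 1 of 4 and in 54.9% of all windows, and GTAC (CviQI) in 0 of 4 and in 29.8%. All 3 sites read the same on both strands. Shown are chr9:136354532-136354831 on the plus strand, the GPSM1 window with a match, CATG in capitals, and chr9:136373620-136373919 on the minus strand, the CARD9 window, which holds none of the 3 sites.
GPSM1: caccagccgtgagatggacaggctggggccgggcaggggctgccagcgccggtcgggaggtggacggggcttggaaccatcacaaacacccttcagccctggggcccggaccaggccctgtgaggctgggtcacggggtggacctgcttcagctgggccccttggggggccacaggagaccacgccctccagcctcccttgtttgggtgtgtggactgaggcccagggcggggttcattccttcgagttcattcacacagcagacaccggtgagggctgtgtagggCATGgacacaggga
CARD9: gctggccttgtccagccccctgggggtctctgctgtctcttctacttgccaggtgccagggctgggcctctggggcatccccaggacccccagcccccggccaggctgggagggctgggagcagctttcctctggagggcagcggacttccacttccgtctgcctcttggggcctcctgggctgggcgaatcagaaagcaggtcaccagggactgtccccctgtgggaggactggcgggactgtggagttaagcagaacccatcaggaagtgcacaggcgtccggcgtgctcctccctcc

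Mutant libraries held 3500663 to 8008761 chromosome 9 reads and WT libraries 1437870 to 2326487. Shares below are of near-cis reads (more than 5 kb and at most 500 kb from the viewpoint), which numbered 64583 to 2691302 per library and were 81.6 to 89.9% of chromosome 9 reads outside that 5-kb mask in mutants, against 66.7 to 73.4% in WT. The interval itself held 2590 to 218339 reads per library. The S2 mutant's promoter libraries had the fewest, 2590 and 2749 reads. Reads carried no molecular identifiers and are not independent ligation events, so counts give no interval for the number of contacts. The tables listed 0 ends in the 50.6 kb between 139166354 and 139217002, so the neighbouring 80 kb on the centromeric side held 132 to 138 ends, all in its centromeric part, against 287 to 315 ends in the neighbouring 80 kb on the telomeric side.

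From S4, the interval took a larger share in the S2 and S4 mutants than in WT and a smaller share in the S5 and S4-S5 mutants. It held 11.3 and 11.2% of near-cis reads in S2 mutant, 10.1 and 9.96% in S4 mutant, 4.56 and 4.56% in S5 mutant and 4.82 and 4.82% in S4-S5 mutant cells, against 7.11 and 7.17% in WT. No 2 genotypes overlapped. Other 80-kb windows, such as 139375001 to 139455000, showed this too, so it was not particular to the interval. In edgeR's quasi-likelihood test on 80-kb windows, the interval's log2 fold over WT was 0.66 (SE 0.03, adjusted p = 3.61e-07) in the S2 mutant. It was 0.49 (SE 0.01, adjusted p = 1.51e-09) in the S4 mutant by the same edgeR test. It was -0.65 (SE 0.03, adjusted p = 4.72e-07) in the S5 mutant and -0.57 (SE 0.02, adjusted p = 1.69e-08) in the S4-S5 mutant by the same edgeR test. Other settings moved the sizes but not the calls, apart from covered ends: the S4 mutant's fold was 0.76 with the chromosome 9 total, and the S5 and S4-S5 mutants' folds were -0.36 and -0.30 with that total but -1.22 and -1.22 against mutants in place of WT. Both lines with a mutated S4 carry that mutation at the viewpoint itself.

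From S2, only the S2 mutant among the 4 mutants had more of its near-cis reads in the interval than WT. The shares were 8.37 and 8.45% in S2 mutant, 4.77 and 4.76% in S4 mutant, 3.94 and 3.88% in S5 mutant and 3.02 and 3.11% in S4-S5 mutant cells, against 6.62 and 6.63% in WT. Again no 2 genotypes overlapped, as in other windows such as 139535001 to 139615000. The S4-S5 mutant was lowest in the interval. The log2 folds over WT were 0.34 (SE 0.03, edgeR adjusted p = 1.43e-11), -0.48 (SE 0.02, 3.96e-14), -0.76 (SE 0.03, 7.22e-18) and -1.11 (SE 0.03, 7.77e-21). Apart from covered ends, these folds ran over the other settings from 0.24 to 1.13, -0.69 to -0.15, -1.16 to -0.43 and -1.53 to -0.73, all past the test. Here the S2 mutant's viewpoint carries the mutated site.

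From the promoter, the share was lower than in WT in 3 mutants and not distinguishable from it in the S2 mutant. The S2 mutant had 4.01 and 3.99%, the S4 mutant 3.05 and 3.09%, the S5 mutant 2.64 and 2.59% and the S4-S5 mutant 2.62 and 2.60%, against 3.97 and 4.00% in WT. The S2 mutant overlapped WT, and the S5 and S4-S5 mutants overlapped each other. The log2 folds were 0.01 (edgeR adjusted p = 1) in S2 mutant, -0.38 (SE 0.01, edgeR adjusted p = 1.03e-12) in S4 mutant, -0.61 (SE 0.02, 4.58e-14) in S5 mutant and -0.61 (SE 0.01, 9.45e-17) in S4-S5 mutant cells. These falls depended on the scaling. With TMM factors the folds of the S4, S5 and S4-S5 mutants were 0.15, -0.045 and -0.047, the S5 value not past the test (edgeR adjusted p = 0.111). With DESeq2's size factors they were 0.015, -0.15 and -0.028, the first and last not past the test (DESeq2 adjusted p = 0.506 and 0.212), and with the chromosome 9 total -0.063, -0.25 and -0.30. Against mutants in place of WT the S4 mutant's fold was -0.076.

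A call by the window test carried little information by itself, because nearly all windows passed: 91.7% to 100% of the 12 windows in each of the 12 contrasts with WT. As shares of all chromosome 9 reads outside the mask, the interval held 9.91% ± 0.0883 in S2 mutant, 8.89% ± 0.0790 in S4 mutant, 4.09% ± 0.00906 in S5 mutant and 4.25% ± 0.0126 in S4-S5 mutant cells from S4, against 5.24% ± 0.0221 in WT (SD, n = 2 each). From S2 the same shares were 6.88% ± 0.0760, 4.17% ± 0.00271, 3.44% ± 0.0263 and 2.65% ± 0.0713 in mutants of S2, S4, S5 and S4-S5, against 4.63% ± 0.00392 in WT. From the promoter they were 3.36% ± 0.00698, 2.55% ± 0.0283, 2.24% ± 0.0257 and 2.16% ± 0.00447, against 2.66% ± 0.0123 in WT. On that scale the S2 mutant lay above WT at all 3 viewpoints, with a log2 fold of 0.34 at the promoter (edgeR adjusted p = 1.41e-11). Shares of near-cis and of chromosome 9 reads each differed among the 5 genotypes at each viewpoint in an exact permutation test over every parting of the 10 libraries into 5 pairs (upper tail, Benjamini-Hochberg adjusted p = 0.00169 to 0.00773 over 24 values; the smallest exact p is 0.00106). For the promoter's near-cis share this did not hold without the S4 mutant (adjusted exact p = 0.0696).

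**Figure D1:**
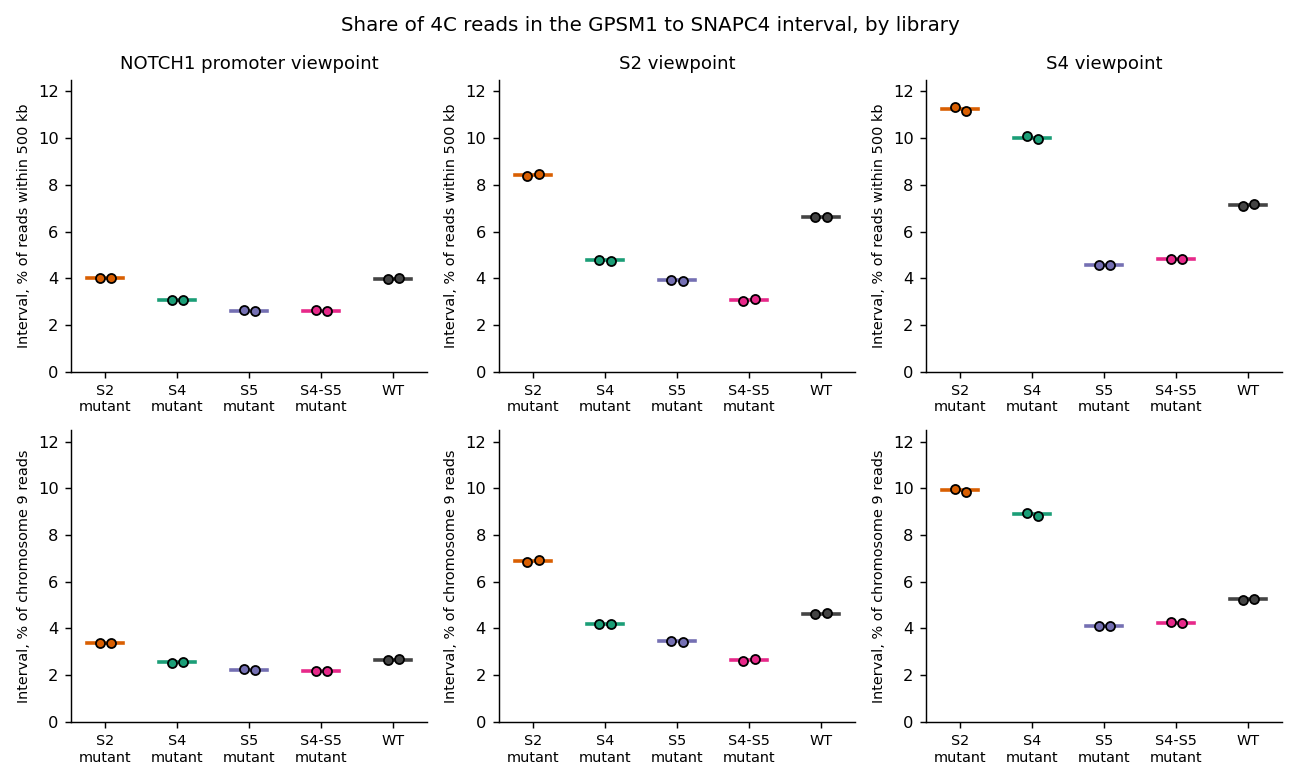
Share of reads in the interval for each library (points) with the mean of the 2 libraries (bars), as a percentage of reads within 500 kb (top) and of chromosome 9 reads outside the mask (bottom), for mutants and WT at each viewpoint. The S2 and S4 mutants lie above WT from S4, at 9.96 to 11.3% against 7.11 to 7.17%, and only the S2 mutant lies above WT from S2.

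Against the other 80-kb windows, the interval's place differed between contrasts. With near-cis totals the median fold of the 12 windows was below 0 in each contrast with WT. The scaling moved that median, in the S2 mutant from the promoter for example from -0.32 with near-cis totals to 0.21 with TMM factors. The interval's fold is therefore given minus that median, from which any scaling of libraries drops out. From S4 this relative fold was 0.79 in the S2 mutant and 0.69 in the S4 mutant, in each case with the interval's fold the highest of 12 windows. It was -0.38 in S5 mutant cells, with 3 windows lower, and -0.02 in S4-S5 mutant cells, so the lower share in the S4-S5 mutant was about that of the median window. From S2 it was 0.71 in the S2 mutant, second highest of 12, and -0.36, -0.48 and -0.74 in mutants of S4, S5 and S4-S5, with 3, 3 and 1 of the other windows lower. From the promoter it was 0.33, 0.20, -0.01 and 0.04 in mutants of S2, S4, S5 and S4-S5, and the interval ranked ninth, ninth, sixth and eighth from the lowest. No test was run between windows, which differ in their ends.

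**Figure D2:**
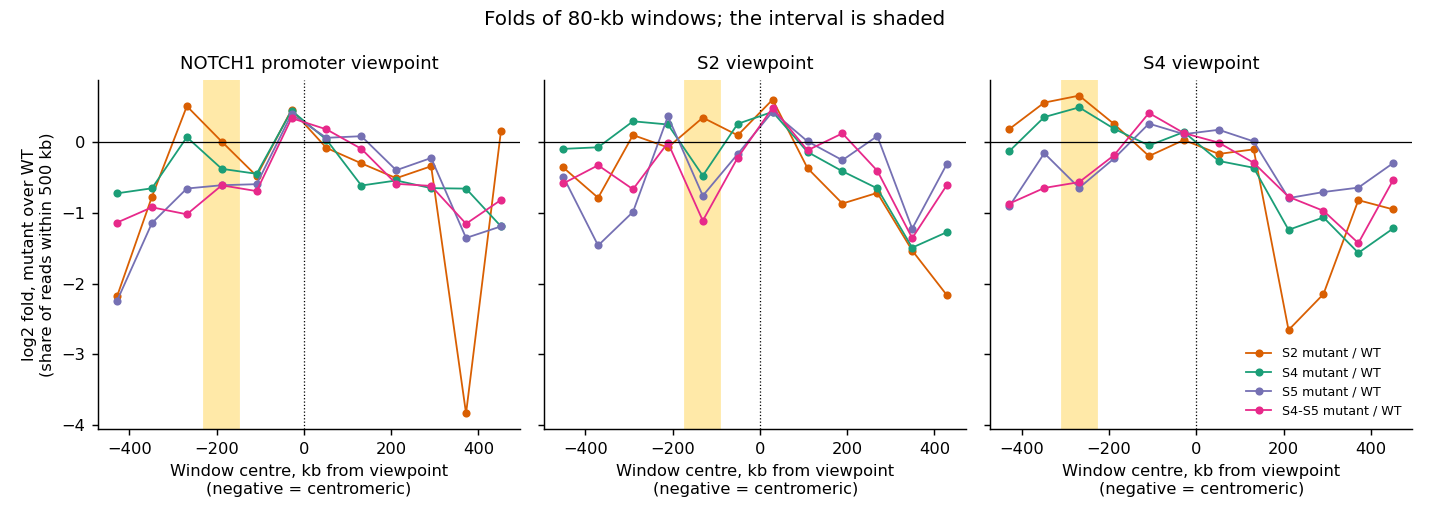
Log2 fold of each mutant over WT in the 12 windows of 80 kb, against the distance of the window centre from the viewpoint in kb, with the interval shaded. From S4 the interval's folds of 0.66 and 0.49 are the highest of all windows in the S2 and S4 mutants, and from S2 its fold of -1.11 is second lowest in the S4-S5 mutant.

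The neighbouring 80 kb on the telomeric side, which leads towards S2, took more reads than the interval in every library. The log2 ratio of interval to neighbour from S4 was -0.70 ± 0.0192 in S2 mutant, -0.80 ± 0.0198 in S4 mutant, -1.52 ± 0.0135 in S5 mutant and -1.48 ± 0.0288 in S4-S5 mutant cells, against -1.11 ± 0.0183 in WT (SD, n = 2 each). From S2 it was -0.79 ± 0.0160, -1.77 ± 0.0128, -1.63 ± 0.0257 and -1.93 ± 0.0783 in mutants of S2, S4, S5 and S4-S5, against -1.04 ± 0.00270 in WT. From the promoter it was -0.58 ± 0.0267, -0.99 ± 0.0231, -1.08 ± 0.0174 and -0.98 ± 0.0207, against -1.06 ± 0.00964 in WT. This ratio needs no library total, and from S4 and S2 it put the same mutants above and below WT as the shares did. From the promoter only the S2 mutant stood clear of WT by more than 0.4, and the S4 and S4-S5 mutants lay slightly above WT although their shares lay below it. Genotypes differed at each viewpoint by the exact permutation test (adjusted p = 0.00169 at S4 and at S2, 0.00693 at the promoter), but at the promoter not on non-blind ends (adjusted p = 0.0508) or without the S2 mutant (0.0596).

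The centromeric neighbour took fewer reads than the interval throughout. The log2 ratio to it ranged from 1.86 to 2.48 over the mutants' means from S4 against 2.35 in WT, from 1.61 to 3.15 from S2 against 2.73 in WT, and from 1.39 to 2.30 from the promoter against 1.89 in WT. These ratios rest on the 132 to 138 ends of the centromeric part of that neighbour.

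Reads fall with distance from a viewpoint, so the interval was also set against a straight line fitted to log reads and log distance over the other 10-kb bins of each library. From S4 the interval lay above that line in each genotype, by log2 3.69 ± 0.0389 in S2 mutant, 2.62 ± 0.0180 in S4 mutant, 1.39 ± 0.0163 in S5 mutant and 1.58 ± 0.0369 in S4-S5 mutant cells, against 1.36 ± 0.000924 in WT (SD, n = 2 each). On this measure no mutant lay below WT from S4. The 80 kb at the same distances on the other side of S4 held fewer near-cis reads in each mutant. They held 0.564, 0.550, 0.962 and 0.762% in mutants of S2, S4, S5 and S4-S5, against 1.85% in WT. From S2 the values were 0.78 ± 0.0365, -0.17 ± 0.0120, -1.33 ± 0.00330 and -0.94 ± 0.0474 in mutants of S2, S4, S5 and S4-S5, against 0.11 ± 0.00807 in WT, which kept these last 3 mutants below WT. From the promoter they were 1.32 ± 0.0231, -0.03 ± 0.00164, 0.00 ± 0.0462 and -0.11 ± 0.00270, against -0.23 ± 0.0115 in WT. All 4 mutants thus lay above WT there, although 3 of them had lower shares. The line rests on the other bins of the same library, on both sides of the viewpoint. Fewer reads in those bins therefore raise this measure too, and their part was not tested. Genotypes differed at each viewpoint (exact permutation test, adjusted p = 0.00169).

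The S4-S5 mutant was also set against each single mutant, to ask what the second mutated site goes with. Against the S4 mutant, the S4-S5 mutant's share was lower at every viewpoint. The values were 4.82% ± 0.00471 against 10.02% ± 0.0884 from S4, 3.06% ± 0.0687 against 4.76% ± 0.00978 from S2, and 2.61% ± 0.0126 against 3.07% ± 0.0293 from the promoter (SD, n = 2 each). The log2 folds were -1.06 (SE 0.01, edgeR adjusted p = 6.01e-12), -0.64 (SE 0.02, 3.59e-16) and -0.23 (SE 0.01, 8.91e-11), the last of which was -0.043 with DESeq2 (adjusted p = 0.0473). Relative to the median window they were -1.14 from S4, the lowest of 12 windows, -0.52 from S2 and -0.06 from the promoter. Between 83.3% and 91.7% of windows were called in these contrasts.

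Against the S5 mutant, the S4-S5 mutant differed less. The shares of the 2 genotypes overlapped from the promoter, at 2.61% ± 0.0126 in the S4-S5 mutant and 2.61% ± 0.0354 in the S5 mutant, with a log2 fold of -0.00 (edgeR adjusted p = 0.815), but the fold was -0.049 with the chromosome 9 total (edgeR adjusted p = 0.00343) and 0.12 with DESeq2 (adjusted p = 4.24e-07). From S4 the S4-S5 mutant was slightly higher, at 4.82% ± 0.00471 against 4.56% ± 0.00314 (log2 0.08, SE 0.02, adjusted p = 0.00765 by edgeR), and the fold was 0.19 with TMM factors, 0.32 with DESeq2 and 0.053 with the chromosome 9 total, which did not pass (edgeR adjusted p = 0.0544). From S2 it was lower, at 3.06% ± 0.0687 against 3.91% ± 0.0419 (log2 -0.35, SE 0.02, adjusted p = 1.56e-11 by edgeR). Of the 12 windows, 91.7%, 75% and 100% were called in these contrasts at the promoter, S4 and S2. With covered ends none of the 6 folds between the S4-S5 mutant and a single mutant passed (log2 -0.11 to 0.11, edgeR adjusted p = 0.834 to 0.998).

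Within the interval, S2 and S4 shared a profile over the 8 bins of 10 kb in WT that the promoter did not. From S2 the WT bins took, from the centromeric to the telomeric edge, 0.620, 0.429, 0.826, 0.693, 1.39, 0.856, 0.990 and 0.815% of near-cis reads. From S4 the same bins took 0.753, 0.314, 1.05, 0.963, 1.25, 0.766, 0.880 and 1.17%. From the promoter they took 0.367, 0.373, 0.712, 0.306, 0.212, 0.469, 0.712 and 0.834%. The bin 139255001 to 139265000 was thus the interval's highest from S2 and from S4, ranking 17 of 84 and 20 of 85 bins more than 50 kb from the viewpoint, and its lowest from the promoter, ranking 67 of 85. Over the 8 bins the S2 and S4 profiles had a Pearson correlation of 0.76 in WT and 0.71 to 0.94 in the mutants, while the promoter's correlation with either was -0.66 to 0.22 over the 5 genotypes. These are descriptions over 8 bins. The S2 and S4 tables shared 222 of 224 ends, whereas the promoter's tables shared 206 with each of them, and bins differ in their number of ends (18 to 46). Ends marked non-blind (on fragments with a site of the second enzyme) differed too. The bin 139255001 to 139265000 had 15 from S2 and from S4, the most of the 8 bins, and 19 from the promoter. The bin 139225001 to 139235000, the lowest from S2 and S4, had the fewest there, 7, and 23 from the promoter. The part of these ends in the likeness of the profiles was not tested.

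Bins were called in most contrasts, as they were throughout the near-cis region. From S4, by edgeR's test on 10-kb bins, 7 of 8 interval bins passed in S2 mutant cells (92.6% of all 95 bins), 8 in S4 mutant cells (90.5%), 7 in S5 mutant cells (88.4%) and 8 in S4-S5 mutant cells (94.7%). From S2 the counts were 8 in S2 mutant cells (88.3% of all 94 bins), 7 in S4 mutant cells (84%), 7 in S5 mutant cells (83%) and 7 in S4-S5 mutant cells (71.3%). From the promoter they were 5 in S2 mutant cells (93.7% of 95 bins), 7 in S4 mutant cells (85.3%), 7 in S5 mutant cells (91.6%) and 7 in S4-S5 mutant cells (93.7%). The number called was therefore near the background in most contrasts. It was lower in the S2 mutant at the promoter (62.5% against 93.7%). In the S4-S5 mutant from S2 it was higher (87.5% against 71.3%).

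The direction of the calls was more uneven than their number. In the S4 mutant from S4, 7 of 8 bins were higher (31.6% of all bins) and 1 lower (58.9%), and the median log2 fold was 0.41 over the interval and -0.44 over all bins. In the S2 mutant from S4, 4 bins were higher (31.6% of all bins) and 3 lower (61.1%). The median log2 fold was 0.13 over the interval and -0.70 over all bins. From S2 the S2 mutant had 4 bins higher (27.7% of all bins) and 4 lower (60.6%), with medians of -0.17 and -0.92. Its larger share in the interval from S2 and S4 was thus not spread over all 8 bins. From S2, 7 of 8 bins were lower and 0 higher in the S5 mutant (55.3% of all bins lower, 27.7% higher) and likewise in the S4-S5 mutant (51.1% lower, 20.2% higher), with median folds of -0.79 and -1.30 over the interval and -0.27 and -0.25 over all bins. The S4-S5 mutant was lower than the S4 mutant in 8 of 8 bins from S4 (42.1% of all bins lower) and in 8 of 8 from S2 (45.7% lower), with interval medians of -1.19 and -0.67 against medians of 0.01 and -0.12 over all bins. From the promoter the interval medians were 0.11, -0.48, -0.74 and -0.53 in mutants of S2, S4, S5 and S4-S5, against -0.77, -0.50, -0.67 and -0.45 over all bins.

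The bin 139255001 to 139265000 rose in all 4 mutants from S4. It took 4.36 and 4.40% in S2 mutant, 2.41 and 2.37% in S4 mutant, 1.47 and 1.43% in S5 mutant and 1.46 and 1.46% in S4-S5 mutant cells, against 1.21 and 1.29% in WT. The mutants lay above both WT libraries, with log2 folds of 1.81 (SE 0.03), 0.94 (SE 0.03), 0.22 (SE 0.03) and 0.22 (SE 0.03) by edgeR (the largest adjusted p was 3.32e-10). On non-blind ends the S5 mutant's fold was 0.025 and did not pass (edgeR adjusted p = 0.495). With the chromosome 9 total, TMM and DESeq2 the S5 mutant's fold was 0.51, 0.59 and 0.66 and the S4-S5 mutant's 0.49, 0.56 and 0.57. When mutants that keep the site in question replaced WT, the folds of the S4, S5 and S4-S5 mutants were -0.08, -1.16 and -1.59. That reference included the S2 mutant each time, which itself held 4.38% in this bin. For the S5 mutant it also included the S4 mutant. Against the S5 mutant alone the S4 mutant was higher, at 2.39% against 1.45%. From S2 the same bin took 2.50% ± 0.0392 in S2 mutant, 1.02% ± 0.0286 in S4 mutant, 0.946% ± 0.00562 in S5 mutant and 0.579% ± 0.00532 in S4-S5 mutant cells, against 1.39% ± 0.00378 in WT (SD, n = 2 each). The S2 mutant alone was above WT there.

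The bin 139225001 to 139235000 held the largest fall in 6 of the 8 contrasts with WT from S2 and S4, some of them on few mutant reads. From S2 it held 15 and 21 reads in the S5 mutant against 2096 and 2864 in WT, or 0.00111% against 0.429% of near-cis reads (log2 -8.59, SE 0.18, edgeR adjusted p = 6.17e-10). It also fell from S2 in the S4-S5 mutant (0.0394%, log2 -3.44) and in the S4 mutant (0.0880%, log2 -2.29). From S4 it held 27 and 38 reads in the S2 mutant against 2636 and 3306 in WT (log2 -5.41, SE 0.13), and it fell in the S5 mutant (log2 -2.99) and the S4-S5 mutant (log2 -1.88). Only 7 of its 27 ends from S2 and from S4 were marked non-blind in the tables (in 4C, fragments that hold a site of the second enzyme), and 1 end gave 73.7% of the WT reads from S2. Against mutants in place of WT, the S4 mutant's fold from S2 was 2.79 and the S4-S5 mutant's -1.87. From S4 the S5 mutant's fold was -0.41 and the S4-S5 mutant's 3.53. The reference for the 2.79 included the S5 mutant with its 15 and 21 reads. For the 3.53 it was the S2 mutant with its 27 and 38 reads. From the promoter the same bin was the S2 mutant's largest rise, at 0.940% ± 0.00413 against 0.373% ± 0.00610 in WT (log2 1.33, SE 0.06), and 1 end gave 75.8% of those mutant reads.

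At the telomeric edge, the bin from 139285001 went opposite ways in the S2 mutant. From S2 it was higher, at 2.77 and 2.95% in the S2 mutant against 0.816 and 0.813% in WT (log2 1.81, SE 0.04, edgeR adjusted p = 2.45e-10). From the promoter it was lower, with 37 and 49 reads in the S2 mutant against 1702 and 3040 in WT, or 0.0642% against 0.834% (log2 -3.70, SE 0.11, edgeR adjusted p = 1.38e-18). From S2 the largest fall of the S2 mutant was in the bin 139265001 to 139275000, at 60 and 53 reads against 4254 and 5619 in WT (log2 -6.73). From the promoter the bin 139275001 to 139285000 was the largest fall in the S4 mutant (log2 -1.42, but 0.47 against mutants in place of WT), the S5 mutant (-3.17) and the S4-S5 mutant (-1.21).

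Of the smaller changes named by the same rule, the promoter's largest rises were in the most centromeric bin in the S4 mutant (log2 0.85), in the bin from 139245001 in the S5 mutant (0.90) and in the bin from 139255001 in S4-S5 mutant cells (0.46). The S4 mutant's rise in the bin from 139285001 from S2 (log2 0.21) and its fall in the most centromeric bin from S4 (-0.54) turned to -0.63 and 0.39 against mutants in place of WT. From S2 no bin was called higher in the S5 or S4-S5 mutant. Of the 22 bins named, 8 turned their direction against the mutant reference and 5 with covered ends, where none of the 22 passed, and 0 did with chromosome 9, TMM or DESeq2 scaling, capped or non-blind ends or a 20-kb mask. The size of the fold moved by more than 1.5 times in 5 bins with the chromosome 9 total, 5 with TMM, 12 with DESeq2, 3 on non-blind ends and 3 more against the mutant reference.

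**Figure D3:**
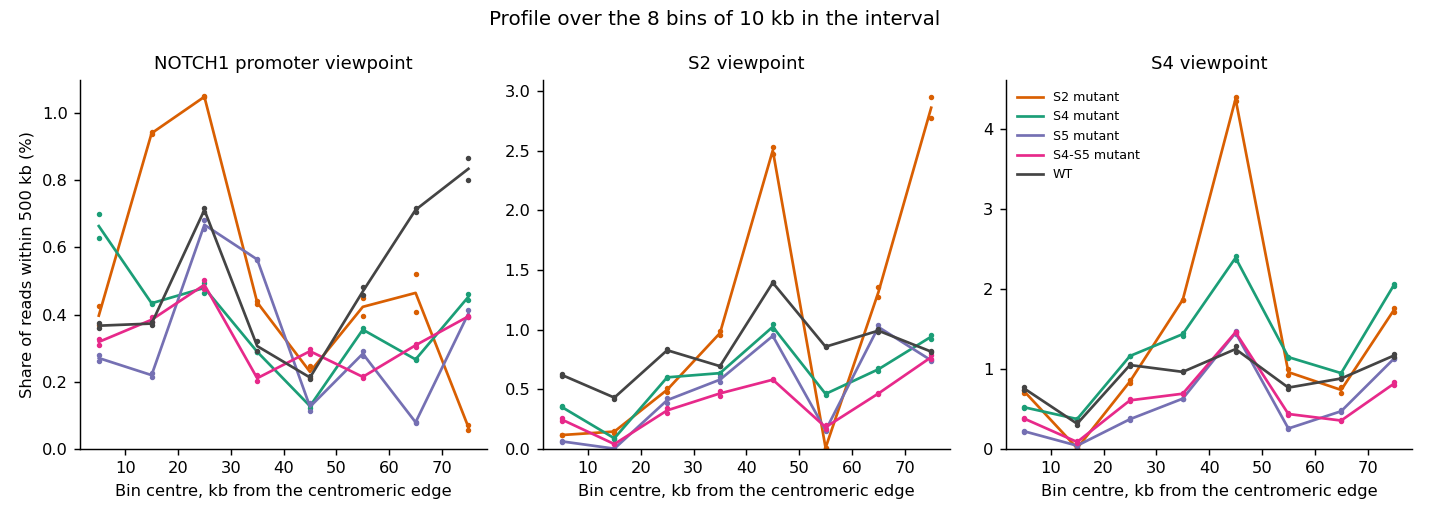
Share of near-cis reads in the 8 bins of 10 kb, against the distance of the bin centre from the interval's centromeric edge in kb, with 1 line per genotype (mean of 2 libraries) and points for the libraries; the vertical scales differ between viewpoints. From S4 the fifth bin reaches 4.38% in the S2 mutant and 2.39% in the S4 mutant against 1.25% in WT, and from the promoter the last bin is 0.0642% in the S2 mutant against 0.834% in WT.

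Read counts of single fragment ends correlated closely between the 2 libraries of a genotype and poorly between genotypes. Across the interval's ends, log2 reads correlated at 0.925 to 0.996 within genotypes at the 3 viewpoints. Between genotypes the range was 0.482 to 0.703 from S4, 0.400 to 0.637 from S2 and 0.0556 to 0.404 from the promoter, over ends of the same tables, which are not independent. Which ends had a read separated the pairs less. Of the ends read in either of 2 libraries, both read 82.9 to 95.5% within genotypes and 71.8 to 86.6% between them from S4. From S2 these shares were 76.2 to 93.7% and 63.1 to 80.3%, and from the promoter 47.5 to 90.3% and 38.0 to 63.5%. The S2 mutant's promoter libraries had the lowest share within a genotype, 48 of 101 ends. Ends with a read in all 5 genotypes numbered 125 of 224 from S4, 101 of 222 from S2 and 65 of 210 from the promoter, and 42, 56 and 30 had none in any. The labels do not say what the 2 libraries of a genotype share before amplification, and its part in these values was not tested.

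The ends with the highest WT mean are given as examples, a choice that by itself favours WT over the mutants. Ends chosen by a mutant's mean can go the other way. From S2 the end 139293452 to 139293979 led in the S2 mutant, at 1.54% against 0.0508% in WT. From S2 the end 139256617 to 139256931 had 0.366% ± 0.00276 of WT near-cis reads, 4214 reads over both libraries, and 33, 4775, 25 and 1736 reads in mutants of S2, S4, S5 and S4-S5, which are deeper libraries. The end 139269530 to 139269856 (0.363% ± 0.00854 in WT) had 45 and 50 reads in the S2 and S5 mutants but 12663 and 3492 in the S4 and S4-S5 mutants, against 4179 in WT. The end 139219529 to 139219765 (0.333% ± 0.0177 in WT) had 14, 15, 12 and 10 reads in mutants of S2, S4, S5 and S4-S5, against 3824 in WT. Nearly all reads of the end at 139219529 were thus in WT.

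From S4 the leading WT end was 139260174 to 139260517, at 0.0126% in S2 mutant, 0.542% in S4 mutant, 0.355% in S5 mutant and 0.249% in S4-S5 mutant cells, against 0.235% ± 0.0181 in WT. It was followed by 139256928 to 139257349 (0.230% ± 0.000302 in WT), which rose to 0.729% in the S2 mutant, and by 139269530 to 139269856 (0.220% ± 0.0111 in WT), with 17 and 21 reads in the S2 and S5 mutants. The first 2 of these ends lie in the bin that was higher in all 4 mutants, but neither was itself higher in all 4. The first was lower than WT in the S2 mutant. The second had 0.347% in the S4 mutant and 0.272% in the S5 mutant, but fell to 0.115% in the S4-S5 mutant. From the promoter the leading WT ends were 139276626 to 139276839 (0.220% ± 0.00105), 139286164 to 139286448 (0.160% ± 0.00451) and 139240448 to 139240717 (0.134% ± 0.00814). The first of them had 5, 8, 4 and 723 reads in mutants of S2, S4, S5 and S4-S5, against 1239 in WT.

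Reads of the interval were spread over fewer ends in mutants than in WT, apart from the S4 mutant from S2, and over the fewest in the S2 mutant. The number of ends holding 90% of the interval's reads from S4 was 22 and 22 in S2 mutant, 65 and 65 in S4 mutant, 40 and 40 in S5 mutant and 55 and 54 in S4-S5 mutant cells, against 82 and 78 in WT. From S2 it was 11 and 12, 58 and 60, 24 and 24, and 42 and 46 in mutants of S2, S4, S5 and S4-S5, against 55 and 57 in WT. From the promoter it was 11 and 12, 51 and 51, 27 and 28, and 59 and 59, against 63 and 65 in WT. The genotypes differed at each viewpoint (exact permutation test, adjusted p = 0.00212 over 6 values). The S2 mutant, with the largest gains in share from S2 and S4, thus also had the fewest ends holding 90% of the interval's reads. The gains over WT were not divided among ends. How the spread over ends bears on the shares was not tested.

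WT libraries had the fewest chromosome 9 reads in total. Near-cis reads were fewest in WT from S2, but in the S2 mutant from S4 and from the promoter. Ends with at least 1 read were most numerous in WT at each viewpoint. From S4 they were 60.0% ± 1.58 of ends in S2 mutant, 64.7% ± 1.89 in S4 mutant, 59.6% ± 1.58 in S5 mutant and 60.9% ± 3.47 in S4-S5 mutant cells, against 77.2% ± 0.631 in WT (SD, n = 2 each). From S2 they were 48.4% ± 0.319, 59.9% ± 0, 51.8% ± 0.637 and 51.4% ± 0.637, against 68.9% ± 0.637 in WT. From the promoter they were 35.5% ± 0.337, 51.7% ± 3.70, 47.9% ± 3.03 and 60.7% ± 0.337, against 64.5% ± 2.36 in WT. Genotypes differed in the exact permutation test (adjusted p = 0.0339 from S4, 0.00282 from S2 and from the promoter), but from S4 not among the mutants alone (adjusted exact p = 0.305). With every library thinned to the lowest near-cis total of its viewpoint (424277 reads at S4, 499045 at S2 and 64583 at the promoter), WT still had the most, at 163 to 169, 152 to 154 and 117 to 120 ends, against at most 136, 120 and 113 in any mutant library. The same held outside the interval: thinned, 52.3 to 53.6% of the other near-cis ends had a read in WT from S4, against 34.1 to 39.7% in the mutants.

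Ends with a read were also counted in place of reads, relative to each library's total of near-cis ends with a read. This scaling takes out a difference shared by the whole near-cis region, such as the larger share of ends with a read in WT. On this count the interval passed in no contrast with WT. The log2 folds ran from -0.18 to 0.12 and none reached the threshold in edgeR's test (adjusted p = 0.255 to 0.956), and 0 of 8 bins passed in any of the 18 contrasts, 0 of them also at an unadjusted p under 0.05. Up to 11 bins of the whole near-cis region had an unadjusted p under 0.05 in a contrast, and at most 1 passed after adjustment. A bin of 18 to 46 ends gives this count little range, and the folds are relative to each library's total. The result therefore does not show that the genotypes are alike.

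**Figure D4:**
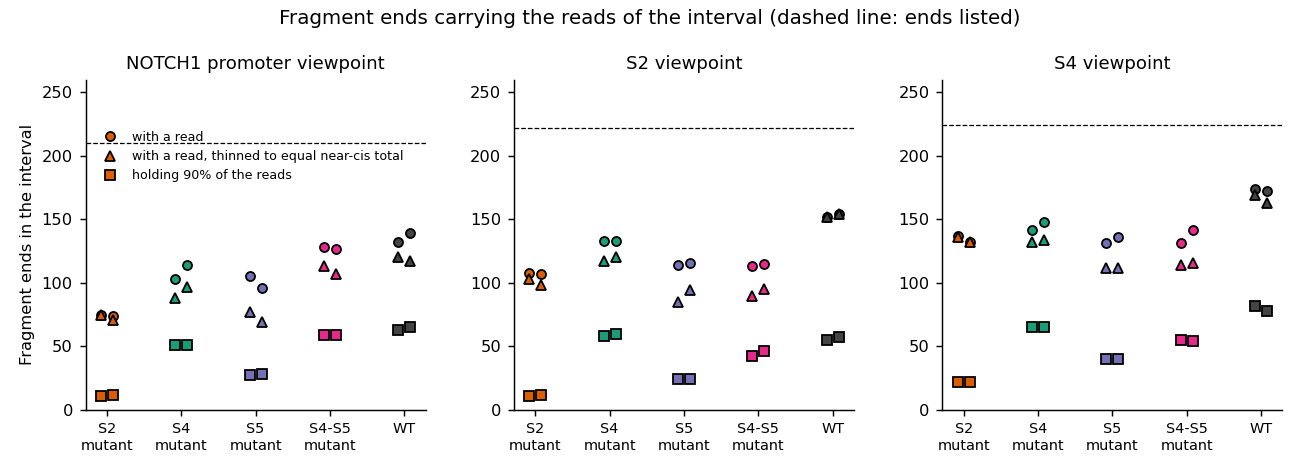
Number of the interval's fragment ends with a read (circles), with a read after thinning to an equal near-cis total (triangles) and holding 90% of the interval's reads (squares), for each library of mutants and WT; the dashed line is the number of ends listed. WT has the most ends with a read at each viewpoint, and 11 to 12 ends hold 90% of the reads in the S2 mutant from the promoter and from S2, against 63 to 65 and 55 to 57 in WT.

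The split of reads between the telomeric and centromeric 40 kb of the interval also differed among genotypes. From S4 the log2 ratio of telomeric to centromeric part was 1.19 ± 0.0223 in S2 mutant, 0.91 ± 0.00317 in S4 mutant, 1.40 ± 0.0283 in S5 mutant and 0.80 ± 0.00669 in S4-S5 mutant cells, against 0.40 ± 0.0378 in WT (SD, n = 2 each). From S2 it was 1.95 ± 0.0274, 0.89 ± 0.0267, 1.45 ± 0.00804 and 0.90 ± 0.0599 in mutants of S2, S4, S5 and S4-S5, against 0.66 ± 0.0103 in WT. From the promoter it was -1.26 ± 0.0498, -0.63 ± 0.0225, -0.95 ± 0.0213 and -0.21 ± 0.00997, against 0.34 ± 0.0320 in WT. All 4 mutants were thus tilted, relative to WT, towards the telomeric part, near SNAPC4 in gene order, from S4 and S2, and towards the centromeric part from the promoter. In the S2 mutant the bin from 139285001 held 2.86% against 0.815% in WT from S2, and 0.0642% against 0.834% from the promoter. The promoter's tables marked more ends as non-blind in each bin than those of S2 and S4. The part of this in the opposite tilts was not tested. The exact permutation test among genotypes gave adjusted p = 0.00169 from S4, 0.00363 from S2 and 0.00169 from the promoter. Each mutant was compared with the same 2 WT libraries at a viewpoint, so the 4 shared directions are not independent.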

How the data were processed

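The authors deposited whole read counts per restriction fragment end of chromosome 9, 1 table per library, without normalization per the file headers, and other deposited columns were not used. Per the submitters' processing notes, deepTools and hg19 were used, without a stated role. For aligner, read filters, counter and the second enzyme of each viewpoint, the sources used here give nothing. The interval, bins and genes were chosen with earlier results of these data known.

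Counts were summed in 80-kb windows and 10-kb bins on a grid starting at the interval's centromeric border, bins averaging under 10 reads were dropped, and library sizes were near-cis totals. Viewpoints were set at 139443268 (promoter), 139385872 (S2) and 139523746 (S4). All 10 libraries of a viewpoint were fitted together with edgeR 4.0.16 (glmQLFit and glmQLFTest, two-sided, Benjamini-Hochberg over all windows or bins of a contrast, threshold 0.05), which was tested on simulated counts. Those counts were drawn independently, unlike reads amplified without molecular identifiers, so they do not check the p-values of these data. Exact tests enumerated all partings (scipy 1.17.1, numpy 2.4.6). The bins named are, for each mutant and viewpoint, that with the largest log2 fold over WT in each direction among called interval bins with no overlap between mutant and WT libraries, and the ends are the 3 with the highest WT mean. The mutant reference puts mutants with an intact site in the place of WT: S4, S5 and S4-S5 for S2, S2 and S5 for S4, S2 and S4 for S5, and S2 for S4-S5. Alternatives were TMM factors, DESeq2 1.42.0, the chromosome 9 total, other masks, windows, bins and minimums, capped, non-blind or covered ends, the mutant reference, leaving out each library, and a replicate block. Replicate numbers were not taken to pair libraries: over 30 pairs of genotypes the replicate differences correlated at -0.24 to 0.49 (median 0.04), with 12 over 0.1. Promoter windows are RefSeq's (GRCh38.p14), and hg19 gene positions were not analysed here.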

Additional observations from a re-analysis of the deposited data

Results flagged for a closer look

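The S4 mutant's fold over WT had opposite signs at different viewpoints in each library of both groups, and the difference itself was not tested. From S4 the interval's log2 fold was 0.49, against -0.38 from the promoter and -0.48 from S2. The promoter value was 0.15 under TMM and 0.015 under DESeq2 scaling, so the contrast of signs between S4 and the promoter does not hold under those scalings. Relative to the median window the folds were 0.69 from S4, 0.20 from the promoter and -0.36 from S2. In the S4 mutant the S4 viewpoint itself carries the mutated site, and the part of this in the result was not tested.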

How the results depend on the processing

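Covered ends are ends with a read, counted relative to each library's near-cis total of them. Of the 12 folds of the interval over WT, the 8 from S2 and S4 kept their direction and call under every alternative run except covered ends, and the 4 from the promoter did not. With covered ends none of the 12 passed: the folds were -0.18, -0.13, -0.022 and -0.020 from the promoter, 0.037, 0.085, 0.030 and -0.027 from S2, and 0.12, 0.017, 0.035 and 0.051 from S4 in mutants of S2, S4, S5 and S4-S5, so 5 turned sign, and 0% of interval bins passed in each of 18 contrasts. The S2 mutant's fold from the promoter, 0.01, became 0.54 with TMM factors, 0.54 against the mutant reference, 0.44 with DESeq2, 0.34 with the chromosome 9 total, 0.14 with a 20-kb mask, 0.071 within 1 Mb, -0.070 within 250 kb and -0.25 on non-blind ends. From the promoter the S4 mutant had 0.15 with TMM and 0.015 with DESeq2, the S5 mutant -0.045 with TMM and the S4-S5 mutant -0.028 with DESeq2. The share of interval bins called in the S2 mutant from the promoter was 100% with DESeq2, the chromosome 9 total or 5-kb bins, and that of the S4-S5 against the S4 mutant there was 57.1% on a grid shifted by 5 kb. In exact tests among genotypes, the promoter's near-cis share had adjusted p = 0.0696 without the S4 mutant, its ratio to the telomeric neighbour 0.0508 on non-blind ends and 0.0596 without the S2 mutant, and the share of ends with a read from S4 had 0.0667 on non-blind ends, without the S2 mutant and without the S5 mutant, 0.124 without the S4 mutant and 0.305 in mutants alone. The cause was not tested for any of these. The widest move of a fold over WT on leaving out 1 library was 0.0233, and the replicate block changed no call of a fold or count; the S4 mutant's fold from S4, for example, stayed at 0.49. The 250-kb window was not run at S4, where it holds only part of the interval. Depth limits the promoter values of the S2 mutant most (2590 and 2749 reads in the interval).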
